A study of Mus musculus with 7 samples.

Results

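The keratins of simple (one-layered) and mucosal epithelia were examined in bulk RNA from mouse skin tumours. These were the 8 genes Krt4, Krt7, Krt8, Krt13, Krt18, Krt19, Krt20 and Krt23, taken by name as rows of a count table of 55423 features that holds 54 keratin genes. They were chosen by their known sites of expression, not by a threshold on these values, but with earlier results of these data known. All 8 passed the filter of 5 or more reads in 1 or more tumours, which left 24433 genes in the test.

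The tumours were cutaneous squamous cell carcinomas of C57BL/6J mice in which topical tamoxifen switched on the Cre recombinase CreERT2 under the promoter of Ivl, the gene for involucrin, expressed in committed keratinocytes. Mice were induced at 7 to 10 weeks of age, and tumours were taken at clinical endpoint. All tumours carried 1 activated BRAFV600E allele, an oncogenic kinase of the MAPK pathway. The first group, Ivl:BRAFV600E, is given here by 3 tumours of 3 mice (B1, B2 and B3, of which B1 and B2 also carried a tdRFP reporter allele), and the second, Ivl:BRAFV600E-SOX2LSL, by 3 tumours of 3 mice (S1, S2 and S3) that also expressed SOX2 with an eGFP reporter from the Rosa26 locus. B1, B2 and S3 came from females and the other 3 tumours from males. Ivl:BRAFV600E tumours can arise at several body sites, the lips and paws among them, and the site of each sequenced tumour is not given in the sources used here. Every SOX2LSL tumour was collected sooner after induction than every Ivl:BRAFV600E tumour, so genotype and time after induction cannot be told apart.

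The libraries held 23565432 to 31152826 counts on genes. Values are given as CPM, the read count normalised to the library size after TMM scaling, and fold changes as log2 of SOX2LSL over Ivl:BRAFV600E from edgeR's quasi-likelihood test with Benjamini-Hochberg adjustment over all genes tested, with a threshold of 0.05. Sox2 lay at 155 to 182 CPM in the SOX2LSL tumours and at 0.238 to 0.716 CPM in the others, and EGFP had 0 counts in all Ivl:BRAFV600E tumours and 3132 to 4957 in the SOX2LSL tumours. Keratinocyte markers were abundant in every tumour, with Krt5 at 2371 to 3899 CPM and Trp63 at 260 to 321 CPM. One tumour, S1, stood apart within its group. The 54 keratin genes took 2.67% of its counts, against 8.36% in S2, 7.06% in S3 and 10.6% to 15.5% in the Ivl:BRAFV600E tumours. Results for the 8 keratins are therefore given with and without S1. Of the other genes from the gene lists, 23 passed the threshold with all tumours. All 23 also passed, in the same direction, in the edgeR fit without S1, a check chosen after seeing the data. That fit called more genes than the fit with all tumours, 1575 against 954. Without B1 only 22 genes passed over all genes, and without B2 only 50, so the 23 cannot all pass without B1.

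Keratins form the intermediate filaments of epithelial cells as pairs of a type I and a type II chain. Krt8 (type II) with Krt18 (type I) is the pair of simple epithelia and of the early embryo, joined in glands and ducts by Krt7 (type II) and Krt19 (type I), and in gut, urothelium and the Merkel cells of the skin by Krt20 (type I). Krt4 (type II) and Krt13 (type I) are the suprabasal pair of non-cornified mucosa such as mouth and oesophagus, while normal interfollicular epidermis uses Krt5 and Krt14 in its basal layer and Krt1 and Krt10 above it. Simple keratins and Krt13 are well known from squamous carcinomas, where they are used as pathology markers. Krt23 is a type I keratin whose role is less defined.

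The genes lie in the 2 keratin clusters of the mouse genome (GRCm38, gene spans from GENCODE M21). Krt20 (ENSMUSG00000035775, chr11:99428403-99438150, minus strand) and Krt23 (ENSMUSG00000006777, chr11:99477974-99493137, minus) are neighbours in the type I cluster, 39.8 kb apart. Krt13 (ENSMUSG00000044041, chr11:100117327-100121566, minus) and Krt19 (ENSMUSG00000020911, chr11:100140810-100148665, minus) flank Krt15 in the same cluster. Krt7 (ENSMUSG00000023039, chr15:101411043-101430313, plus), Krt4 (ENSMUSG00000059668, chr15:101918535-101924735, minus) and Krt8 (ENSMUSG00000049382, chr15:101996698-102004482, minus) lie in the type II cluster. Krt18 (ENSMUSG00000023043, chr15:102028180-102032027, plus) is a type I gene that lies beside Krt8, 23.7 kb away, and not in the type I cluster. Exons of Krt7 and Krt8 overlap a gene on the opposite strand, Gm671 by 77 bases and Gm36026 by 101 bases, and both of those genes had at most 3 counts in any tumour. The listed pseudogene Krt8-ps also had at most 3 counts.

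The start regions of Krt20, Krt13, Krt8 and Krt18, whose levels the results turn on, are printed so that the sequence before each gene can be read beside its values. They run from 250 bases before to 20 bases after the annotated start, on the strand of the gene, 5′ to 3′ (RefSeq, GRCm38.p6). Capitals mark matches, on either strand, to the SOX core letters ACAATG or ACAAAG, to the AP-1 letters TGANTCA or to the TATA box letters TATAAA.
Krt20 (chr11:99438134-99438403, minus strand): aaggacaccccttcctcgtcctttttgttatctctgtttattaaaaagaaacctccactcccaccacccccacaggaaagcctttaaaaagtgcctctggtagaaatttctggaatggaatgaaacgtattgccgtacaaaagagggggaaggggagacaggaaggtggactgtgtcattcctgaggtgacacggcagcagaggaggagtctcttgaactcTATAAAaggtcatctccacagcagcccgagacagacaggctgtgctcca
Krt13 (chr11:100121547-100121816, minus strand): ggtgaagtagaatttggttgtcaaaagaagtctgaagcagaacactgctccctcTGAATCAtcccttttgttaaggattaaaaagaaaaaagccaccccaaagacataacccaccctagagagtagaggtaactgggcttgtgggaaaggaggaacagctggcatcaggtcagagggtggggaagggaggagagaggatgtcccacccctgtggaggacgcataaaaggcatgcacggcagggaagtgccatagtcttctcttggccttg
Krt8 (chr15:102004323-102004592, minus strand): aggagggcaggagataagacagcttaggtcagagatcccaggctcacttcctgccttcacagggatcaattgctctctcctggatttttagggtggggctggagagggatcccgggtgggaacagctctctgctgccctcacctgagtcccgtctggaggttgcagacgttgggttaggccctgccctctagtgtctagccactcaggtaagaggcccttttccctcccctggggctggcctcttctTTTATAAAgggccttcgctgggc
Krt18 (chr15:102027966-102028235, plus strand): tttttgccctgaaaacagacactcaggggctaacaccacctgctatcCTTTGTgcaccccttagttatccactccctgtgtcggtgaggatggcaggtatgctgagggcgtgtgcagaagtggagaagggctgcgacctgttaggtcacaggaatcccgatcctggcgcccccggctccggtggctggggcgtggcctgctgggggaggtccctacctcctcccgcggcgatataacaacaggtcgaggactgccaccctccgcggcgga

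The Krt20 window held TATAAA from position -29, counted from the annotated start. The Krt13 window held 1 AP-1 match, TGAATCA from position -196, and a further annotated start of Krt13 had 2 such matches in its own window. In the Krt8 window TATAAA and its reverse complement overlapped at the annotated start, and the Krt18 window held CTTTGT, the reverse complement of ACAAAG, from position -203. Among all 32851 promoter windows of this length, 11.6% held ACAATG, 17.4% ACAAAG, 7.23% TGANTCA and 12.9% TATAAA. Windows were found for 6 of the 8 members, not for Krt4 and Krt19. Those of Krt7 and Krt23 are not printed, and the Krt23 window held 1 ACAATG. These matches are descriptions of letters and were not tested for binding.

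Of the 8 keratins, Krt20 alone passed the threshold between the groups, and it rose in all 3 SOX2LSL tumours. Over all genes tested, 3.90% passed in either direction and 2.39% as higher in the SOX2LSL group. Krt13 and Krt8 were also higher in each SOX2LSL tumour than in every Ivl:BRAFV600E tumour, without passing after adjustment. That makes 3 of 8 members higher without overlap of the groups, against 18.2% of all genes tested, and 4 of 8 (Krt18 besides) with an unadjusted edgeR p below 0.05, against 25.7%. DESeq2 called 3 members (Krt20, Krt13 and Krt8), all as higher, where it called 8.59% of all genes as higher. The same 3 passed in edgeR with no filter on low counts, against 5.24% of all genes in either direction. With library sizes taken from 8 epithelial genes 6 passed, against 17.0% in either direction. Those sizes moved genes upwards in general, to a middle value of 1.02 (log2) where TMM gave 0.04. The 6 calls therefore include that shift and cannot be read as a rise of the members alone. With limma 1 member passed as well, Krt13 in place of Krt20, where limma called 8.77% of all genes. Krt18, Krt7 and Krt19 were high in S1 alone, and Krt4 and Krt23 had similar ranges in both groups. The median log2 fold change of the 8 members was 4.30, against 0.04 for all genes tested, and it was 0.51 when S1 was left out. As these are bulk samples, a change in the number of cells of a type and a change of RNA per cell cannot be told apart for any of these genes.

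**Figure D1:**
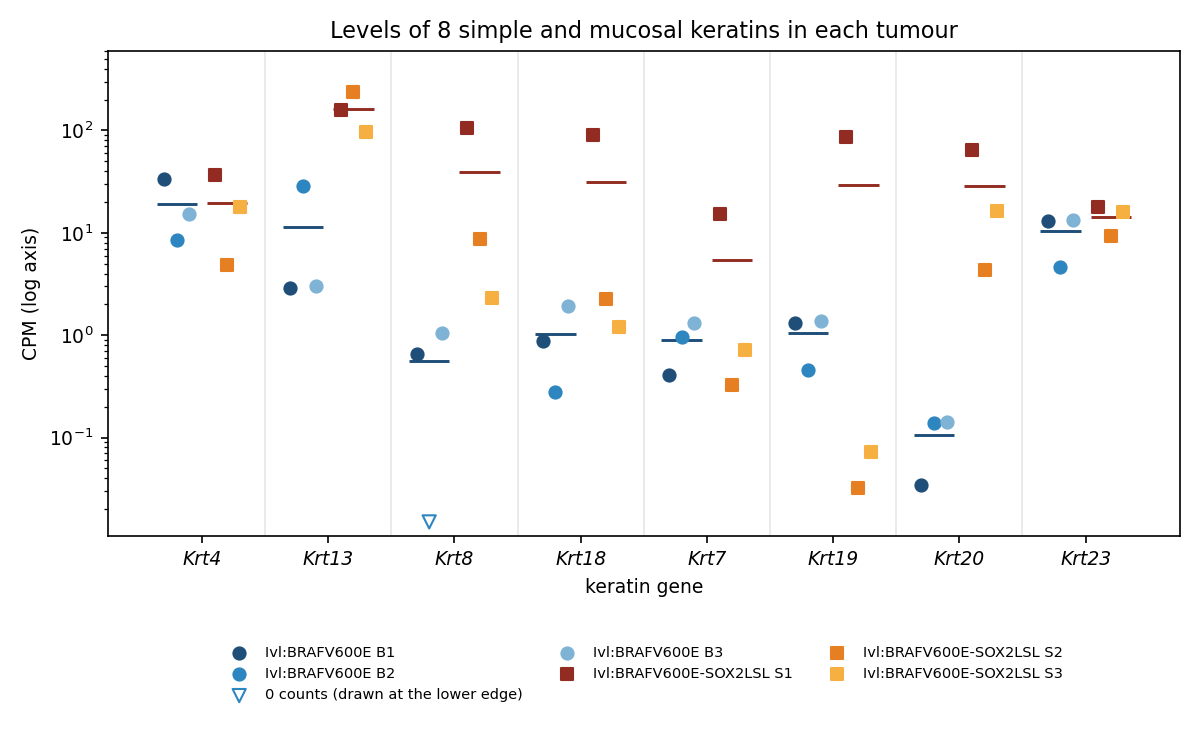
CPM of each of the 8 keratins (log axis) in the 3 Ivl:BRAFV600E tumours (blue circles) and the 3 Ivl:BRAFV600E-SOX2LSL tumours (red to yellow squares), with group means as lines and the value of 0 counts as an open triangle at the lower edge. Krt20, Krt13 and Krt8 separate the groups, while Krt18, Krt7 and Krt19 are high in S1 alone, and Krt19 is lowest in S2 and S3.

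Krt20 was all but silent in the Ivl:BRAFV600E tumours, with 1, 3 and 3 counts (0.0341, 0.139 and 0.143 CPM in B1, B2 and B3). It had 2314 counts in S1, 135 in S2 and 450 in S3, or 64.7, 4.37 and 16.2 CPM. The lowest SOX2LSL tumour was thus 30.7 times the highest Ivl:BRAFV600E tumour, and S1 held 75.8% of the summed CPM of its group. The fitted log2 fold change was 8.11 ± 1.27 (SE, 95% interval 5.12 to 11.1, edgeR adjusted p = 0.0269). Because the Ivl:BRAFV600E group held 7 counts in all, the pooled ratio of the groups was also computed from counts, and it was 316 with an exact 95% counting interval of 153 to 787, which covers counting error only. Without S1 the ratio was 103 (interval 49.6 to 257) and the call remained (edgeR log2 fold change 6.63, adjusted p = 0.00743). The call was lost when B1, B2 or B3 was left out (edgeR adjusted p = 0.131, 0.0976 and 0.0783), each time with a log2 fold change of 7.62 or more, with sex as a covariate (edgeR adjusted p = 0.0650) and with limma in place of edgeR (adjusted p = 0.0884).

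Krt20 and Krt8 are also keratins of Merkel cells, so the markers of that cell type were read beside them. Of 8 Merkel cell markers, the defining factors Atoh1 and Pou4f3 had at most 3 counts in every tumour, and neither had a count in any SOX2LSL tumour. Isl1, another Merkel cell factor, was at 0.108 to 0.648 CPM in the SOX2LSL tumours and at or below 0.0475 CPM in the others. Syp, Chga, Insm1 and Rab3c stayed below 1 CPM throughout, though Syp was higher without overlap (0.356 to 0.448 CPM against 0 to 0.239 CPM). Piezo2, a mechanosensitive channel of Merkel cells and sensory neurons, rose from 9.69 to 12.5 CPM in the Ivl:BRAFV600E tumours to 19.1 to 33.0 CPM (log2 fold change 1.19 ± 0.24 (SE), edgeR adjusted p = 0.0444). It was the 1 marker of the 6 tested to pass. Of those 6, 3 were higher without overlap and none lower, where 18.2% of all genes tested were higher without overlap. The median log2 fold change of the list was 1.43. The summed level of the list was 10.4 to 13.5 CPM in the Ivl:BRAFV600E group and 20.5 to 34.9 CPM in the SOX2LSL group, mostly from Piezo2.

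Krt8 and Krt18, the pair of simple epithelia, were low in the Ivl:BRAFV600E tumours and very uneven in the SOX2LSL tumours. Krt8 was at 0.648, 0 and 1.05 CPM in B1, B2 and B3, and at 106, 8.65 and 2.31 CPM in S1, S2 and S3. In B2 the count was 0, which allows up to 0.139 CPM (3 counts). The groups did not overlap, but the lowest SOX2LSL tumour was only 2.21 times the highest Ivl:BRAFV600E tumour. The log2 fold change was 6.10 ± 1.67 (SE, 95% interval 2.18 to 10.0, edgeR adjusted p = 0.0832). Without S1 it was 3.26 ± 0.996 (SE, edgeR adjusted p = 0.106).

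Krt18 was at 0.886, 0.277 and 1.95 CPM in B1, B2 and B3, and at 91.2, 2.23 and 1.19 CPM in S1, S2 and S3. Here the groups overlapped, S3 lying below B3. Its log2 fold change was 4.93 ± 1.74 (SE, edgeR adjusted p = 0.138) with all tumours and 0.73 ± 0.70 (edgeR adjusted p = 0.580) without S1. With sex as a covariate the log2 fold change was 2.95 for Krt18 and 4.37 for Krt8, and with limma 1.64 and 4.35, and none of these passed. S1 carried 96.4% of the Krt18 CPM of its group and 90.6% of the Krt8 CPM.

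Per length, the levels of the pair were close in S1. Krt8 stood there at 54.2 and Krt18 at 63.5 CPM per kb of exon. In S2 the levels were 4.42 and 1.55 and in S3 1.18 and 0.829, with Krt8 above Krt18. All 3 Ivl:BRAFV600E tumours had the opposite order, with 0.331 against 0.617 in B1, 0 against 0.193 in B2 and 0.534 against 1.36 in B3. The log2 ratio of Krt8 to Krt18 per length (0.5 counts added) was -2.12 ± 1.77 (SD, n = 3) in the Ivl:BRAFV600E group and 0.59 ± 0.87 (SD, n = 3) in the SOX2LSL group. The difference of 2.71 had an exact two-sided permutation p of 0.1, the smallest that 3 against 3 allows. It was 1.70 without B2, the tumour with no Krt8 count, and 3.12 without S1.

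**Figure D2:**
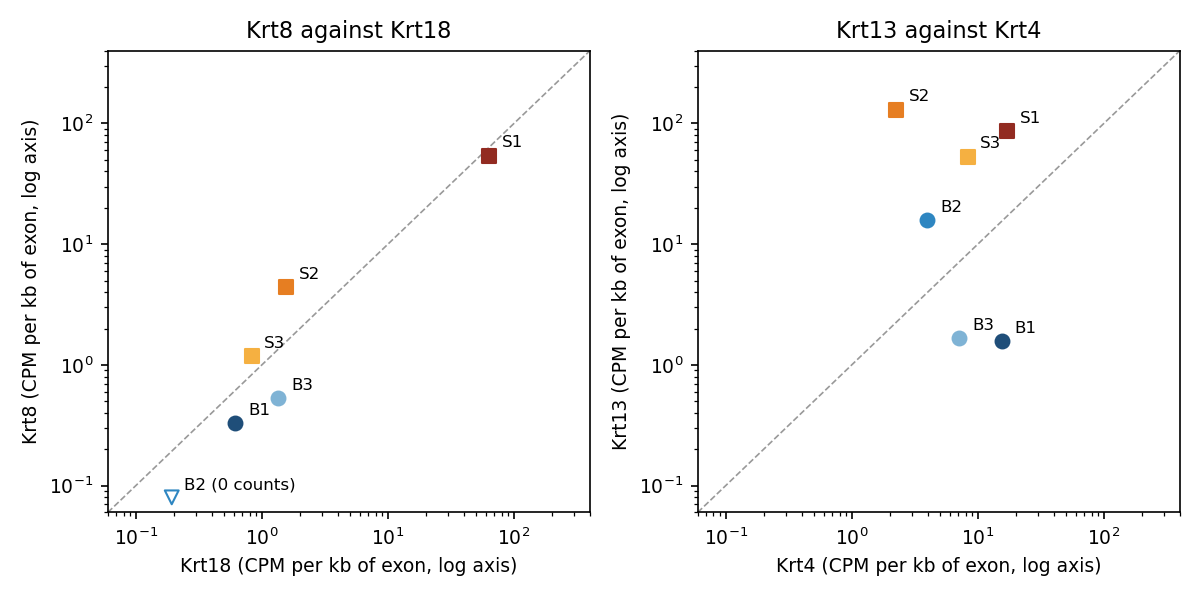
Levels in CPM per kb of exon (both axes log) of Krt8 against Krt18 and of Krt13 against Krt4 in each tumour, with the line of equal levels dashed and the B2 tumour, with no Krt8 count, drawn as an open triangle at 0.08. The SOX2LSL tumours S2 and S3 lie above the line for Krt8, S1 lies near it far from the others, and all SOX2LSL tumours lie above every Ivl:BRAFV600E tumour for Krt13.

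Krt7 and Krt19, the chains of glands and ducts, were raised in S1 and nowhere else. Krt7 was at 0.409, 0.970 and 1.33 CPM in B1, B2 and B3, at 15.4 CPM in S1, and at 0.324 and 0.722 CPM in S2 and S3. S1 was 11.5 times the highest Ivl:BRAFV600E tumour, while S2 lay below all of them. The fitted difference was a log2 fold change of 2.61 ± 1.36 (SE, edgeR adjusted p = 0.271) and became -0.78 ± 0.63 (edgeR adjusted p = 0.507) without S1.

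Krt19 was at 1.33, 0.462 and 1.38 CPM in B1, B2 and B3. In S1 it reached 86.8 CPM, or 3104 counts, whereas S2 had 1 count and S3 had 2. The log2 fold change of 4.76 ± 2.28 (SE) did not pass (edgeR adjusted p = 0.239), and its 95% interval ran from -0.60 to 10.1. Without S1 the direction turned, with a log2 fold change of -4.25 ± 0.80 (SE) that passed the threshold (edgeR adjusted p = 0.0288). In that fit 6.69% of all genes passed, 3.59% as higher and 3.10% as lower. As S2 and S3 held 3 counts between them against 78 in the Ivl:BRAFV600E tumours, the level there was 21.1 times lower by pooled counts, with an exact 95% counting interval of 6.97 to 105. With sex as a covariate the log2 fold change was 1.80 for Krt19 and 1.39 for Krt7, and neither passed.

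Krt13 was higher in every SOX2LSL tumour, and unlike the simple keratins it was not highest in S1. It was at 2.86, 28.6 and 3.04 CPM in B1, B2 and B3, and at 158, 236 and 96.3 CPM in S1, S2 and S3. The groups were separate, and B2 was about 10.0 times the lowest of its group. The log2 fold change was 3.83 ± 0.96 (SE, 95% interval 1.57 to 6.10, edgeR adjusted p = 0.0707). It barely moved without S1, at 3.86 (edgeR adjusted p = 0.0707). Without B2, the tumour with the highest Krt13 of its group, it was 5.79 ± 0.48 and passed (edgeR adjusted p = 0.0250). In that fit 0.136% of all genes passed as higher. Krt13 did not pass without B1, B3, S2 or S3 (edgeR adjusted p = 0.194, 0.138, 0.125 and 0.0971). With limma it passed (log2 fold change 4.99, adjusted p = 0.0125).

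Krt4, the type II partner of Krt13, did not follow it. Krt4 was at 33.2, 8.50 and 15.2 CPM in B1, B2 and B3, and at 36.6, 4.82 and 17.7 CPM in S1, S2 and S3. Its log2 fold change was 0.05 ± 0.73 (SE, 95% interval -1.66 to 1.77, edgeR adjusted p = 0.973), and it was -0.76 without S1. The tumour with the highest Krt13, S2, had the lowest Krt4. Per length, Krt13 was 0.101, 3.95 and 0.234 times Krt4 in B1, B2 and B3, and 5.05, 57.4 and 6.36 times Krt4 in S1, S2 and S3. Within the Ivl:BRAFV600E group B2 likewise had the highest Krt13 and the lowest Krt4.

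Genes of other mucosal epithelia were read beside this pair. Of 6 markers of mucosal stratified epithelium, 2 fell, the palatal keratin Krt76 (log2 fold change -3.58 ± 0.63 (SE), edgeR adjusted p = 0.0335) and the oesophageal envelope gene Crnn. Crnn was at 122, 38.9 and 23.9 CPM in B1, B2 and B3 and at 3.08, 1.36 and 4.98 CPM in S1, S2 and S3 (log2 fold change -4.30, edgeR adjusted p = 0.0324). Pax9, a transcription factor of oral epithelium, was at 2.80 to 3.68 CPM and at 6.15 to 36.4 CPM, with the highest value in S1, and did not pass (edgeR adjusted p = 0.0797). Rptn and Krt78 were lower and Pitx1 higher without overlap, and none of them passed, where 16.0% of all genes tested were lower without overlap. Skeletal muscle markers moved with Krt13 across the SOX2LSL tumours. Their summed level was 2700, 3348 and 766 CPM in S1, S2 and S3, the same order as Krt13, against 3.68 to 16.4 CPM in the Ivl:BRAFV600E tumours. Of these 9 markers 8 rose, Acta1 and Ttn among them, and the muscle troponin gene Tnnc2 had at most 3 counts in any tumour. Their part in the Krt13 result was not tested.

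Krt23 was the most even member. It was at 13.1, 4.66 and 13.3 CPM in B1, B2 and B3, and at 17.8, 9.29 and 16.1 CPM in S1, S2 and S3. Its log2 fold change was 0.48 ± 0.42 (SE, 95% interval -0.52 to 1.47, edgeR adjusted p = 0.512), so the data allow both a small fall and a rise of less than 1.5 on the log2 scale. Krt20 and Krt23 are neighbours on chromosome 11, and their log2 fold changes were 8.11 and 0.48.

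**Figure D3:**
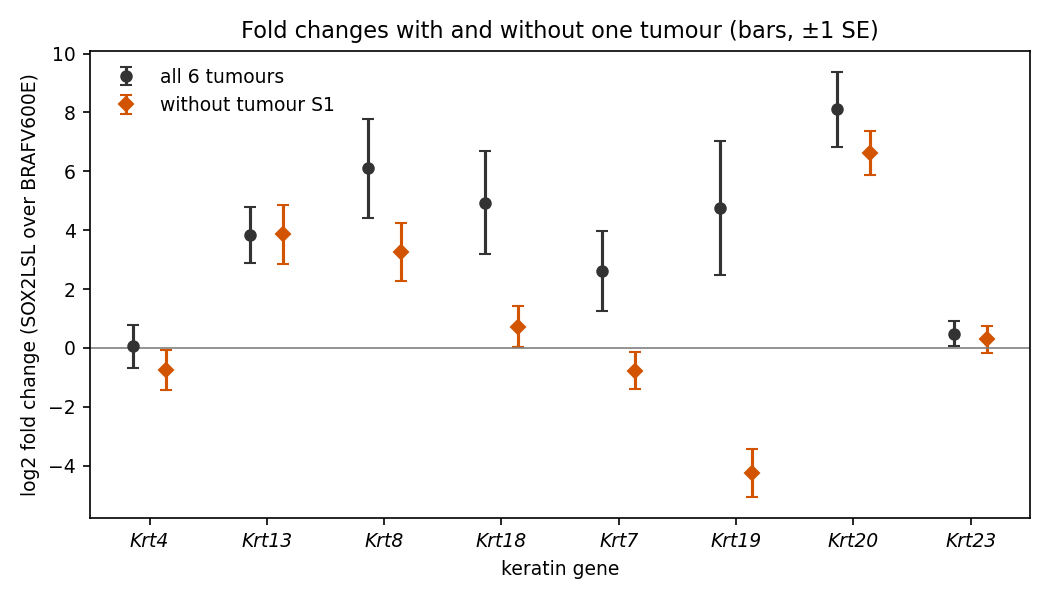
Log2 fold change of the 8 keratins (SOX2LSL over Ivl:BRAFV600E, bars ±1 SE) from edgeR with all 6 tumours (circles) and without tumour S1 (diamonds). Krt13 and Krt23 change little, Krt20 and Krt8 stay well above 0 at 6.63 and 3.26, and Krt7, Krt4 and Krt19 turn to -0.78, -0.76 and -4.25.

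Compared per length, the order of the members differed between the groups. In the Ivl:BRAFV600E tumours Krt4 (mean 8.91 CPM per kb), Krt23 (6.60) and Krt13 (6.32) led, and these 3 overlapped between tumours. The others had means below 1 CPM per kb, from 0.722 for Krt18 and 0.569 for Krt19 down to 0.0545 for Krt20. In the SOX2LSL tumours Krt13 led with a mean of 89.8 CPM per kb and was above each other member in each tumour. Krt18 (21.9), Krt8 (19.9), Krt19 (15.6) and Krt20 (14.8) followed, with means set by S1 and ranges that overlapped. Krt7, with the longest exon length of the members (7049 bases), had a mean of 0.776 CPM per kb. In S2 and S3 the order was another. Krt23 came second after Krt13, at 5.94 and 10.3 CPM per kb, and Krt19 was lowest, at 0.0175 and 0.0389 CPM per kb from 1 and 2 counts. In those tumours Krt8 stood at 4.42 and 1.18, Krt20 at 2.27 and 8.43, Krt4 at 2.26 and 8.31, and Krt18 at 1.55 and 0.829 CPM per kb.

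The share of all keratin counts that fell on the 8 members was small in each tumour. It was 0.0467%, 0.0233% and 0.0235% in B1, B2 and B3, with exact (Clopper-Pearson) 95% intervals for counting error of 0.0444% to 0.0491%, 0.0218% to 0.0248% and 0.0218% to 0.0251%. In S1 it was 2.71% (interval 2.67% to 2.74%), in S2 0.341% (0.333% to 0.348%) and in S3 0.229% (0.222% to 0.236%). The groups were separate, with a mean log2 difference of 4.34, or 20.2-fold, and an exact two-sided permutation p of 0.1, the smallest possible. Without S1 the log2 difference was 3.25. Part of the difference lies in the denominator, as the other keratins took fewer counts in the SOX2LSL tumours. With the TMM-scaled library size as denominator, as in CPM, the log2 difference was 2.69. That denominator also carries the TMM factors, 0.824 to 0.941 in the Ivl:BRAFV600E tumours and 1.07 to 1.25 in the SOX2LSL tumours.

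The make-up of that share changed as well. Krt4, Krt23 and Krt13 held most of the members' counts in the Ivl:BRAFV600E tumours, where Krt4 took 63.4% in B1 and 40.8% in B3 and Krt13 took 65.6% in B2. In S2 and S3 Krt13 took 88.8% and 63.9%. S1 was mixed, with Krt13 at 27.4%, Krt8 at 18.4%, Krt18 at 15.8%, Krt19 at 15.1% and Krt20 at 11.2%.

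**Figure D4:**
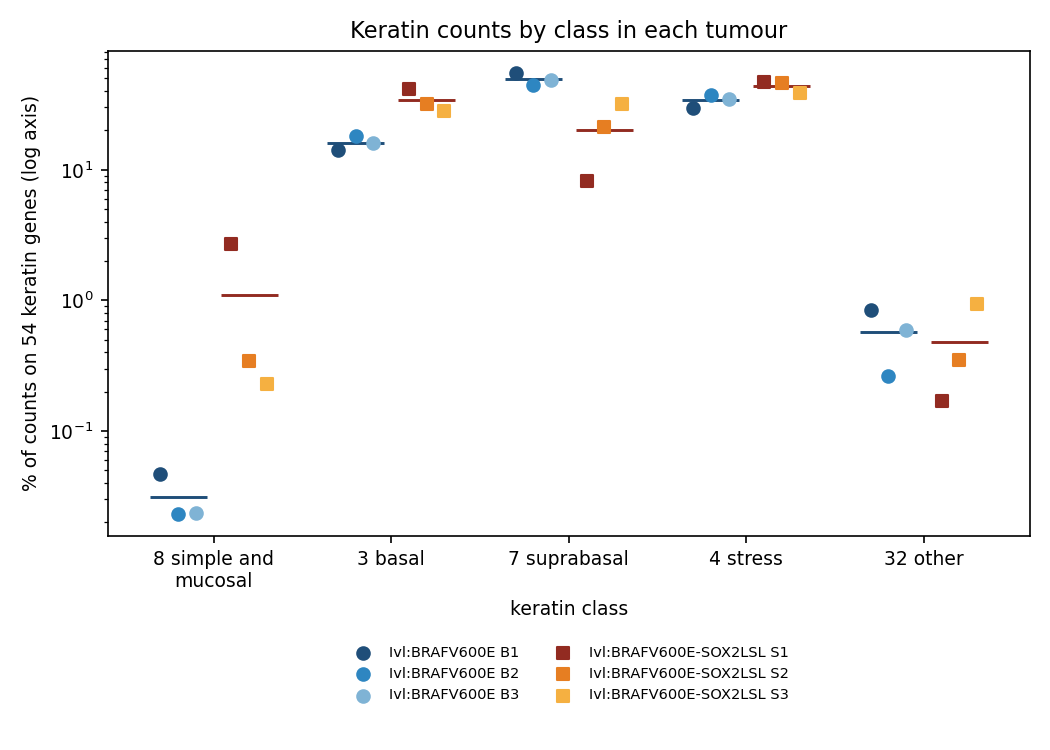
Percentage of the counts on 54 keratin genes (log axis) in each of 5 classes, for each Ivl:BRAFV600E tumour (blue circles) and SOX2LSL tumour (red to yellow squares), with group means as lines. The 8 simple and mucosal keratins lie at 0.0233% to 0.0467% in the first group and at 0.229% to 2.71% in the second, and the 7 suprabasal keratins at 44.2% to 55.3% and 8.15% to 31.7%.

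The keratins of normal and wounded epidermis gave the setting for these shares. None of the 3 basal, 7 suprabasal and 4 stress keratins passed the threshold. The suprabasal keratins Krt1 and Krt10 were lower in every SOX2LSL tumour and lowest in S1, where Krt1 was at 1010 CPM against 11871 and 13009 CPM in S2 and S3 and 32193 to 45410 CPM in the Ivl:BRAFV600E tumours (log2 fold change -2.24 ± 0.83 (SE), edgeR adjusted p = 0.149). Krt10 was at 424 CPM in S1, 3993 to 7213 CPM in S2 and S3 and 28856 to 36337 CPM in the other group (edgeR adjusted p = 0.0935). The basal keratin Krt14 was at 6527 CPM in S1, 21146 and 15298 CPM in S2 and S3, and 13433 to 31244 CPM in the Ivl:BRAFV600E tumours. S1, the tumour with the highest Krt7, Krt8, Krt18, Krt19 and Krt20, thus had the lowest Krt1, Krt10 and Krt14 of the 6.

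Along the clusters, the members stood among keratins with mostly negative fold changes. Of all genes tested, 1.51% passed as lower. Of the 23 other type I keratin genes on chromosome 11, none rose and 3 fell (Krt24, Krt12 and Krt9), with a median log2 fold change of -2.20. Of the 22 tested of the other 23 type II genes on chromosome 15, none rose and 1 fell (Krt76), with a median of -1.67. Krt9, the keratin of palm and sole skin, was at 13.6, 390 and 378 CPM in B1, B2 and B3 and had at most 3 counts in each SOX2LSL tumour. Of these 46 genes, Krt77 had the highest fitted fold change and was, like the simple keratins, highest in S1 (41.2 CPM, against 0.259 and 12.3 CPM in S2 and S3 and 0.231 to 0.903 CPM in the Ivl:BRAFV600E tumours, edgeR adjusted p = 0.0967). Krt15, which lies between Krt13 and Krt19, had a log2 fold change of 1.63 and did not pass (edgeR adjusted p = 0.159).

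**Figure D5:**
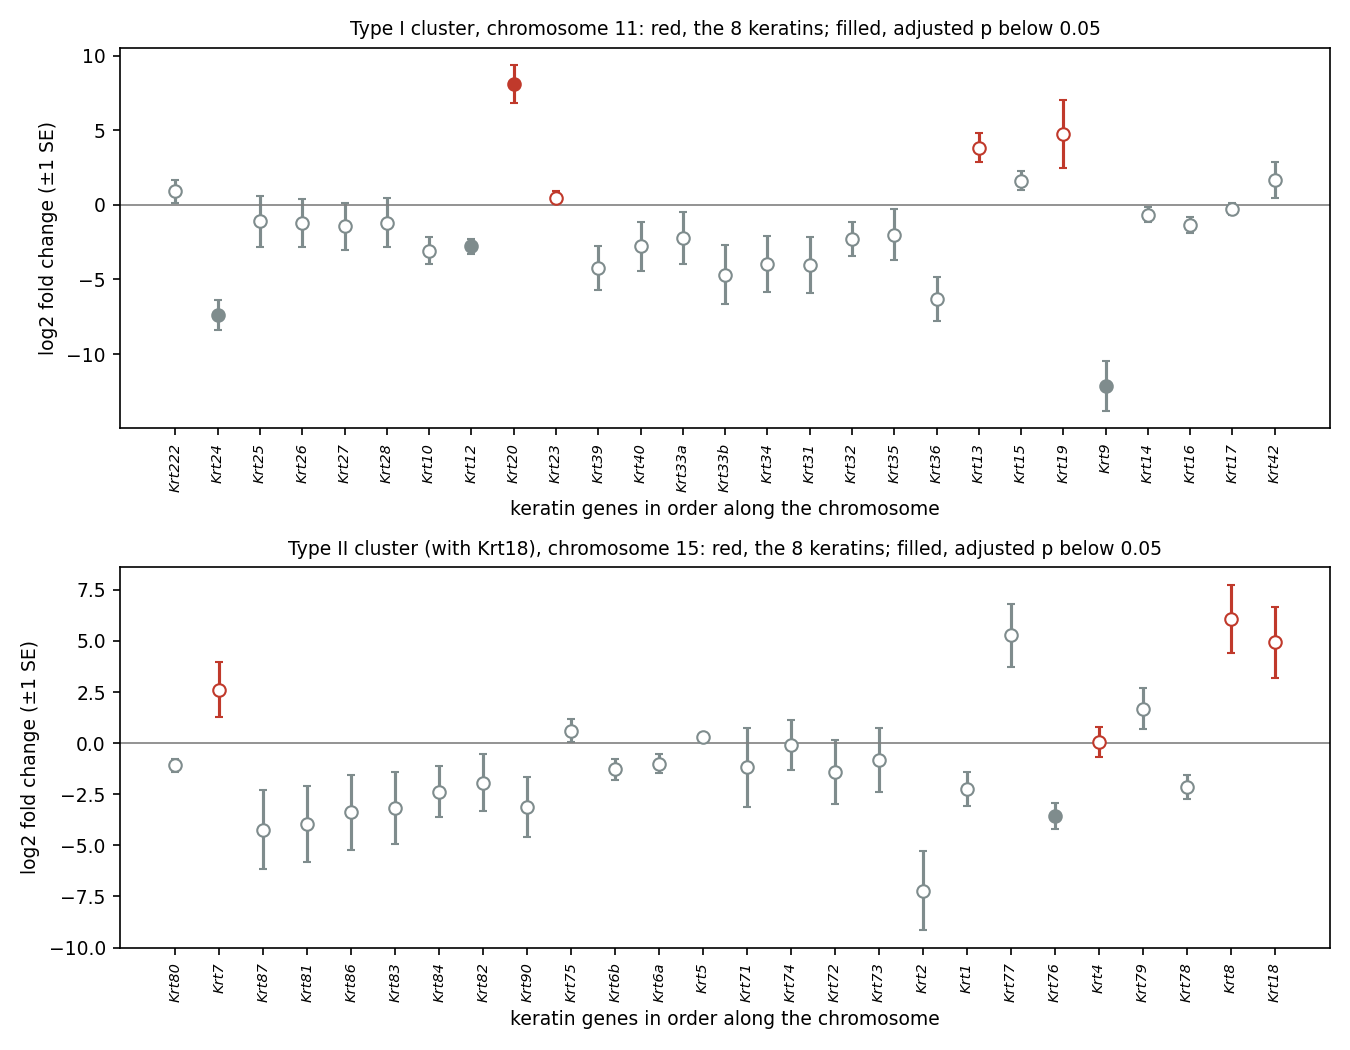
Log2 fold change (±1 SE, edgeR, all 6 tumours) of the tested keratin genes in their order along the type I cluster on chromosome 11 and the type II cluster on chromosome 15, with the 8 simple and mucosal keratins in red and genes with an adjusted p below 0.05 filled. Krt20 is the filled red point at 8.11, and the other filled points, Krt24, Krt12, Krt9 and Krt76, lie below 0.

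Other genes of simple epithelia showed a mixed picture. Of 14 listed genes, 2 rose, none fell, and the median log2 fold change was 0.36. The adhesion molecule Epcam was at 30.0, 8.04 and 18.5 CPM in B1, B2 and B3 and at 428, 141 and 155 CPM in S1, S2 and S3 (log2 fold change 3.68 ± 0.63 (SE), edgeR adjusted p = 0.0309). The tight junction gene Cldn7 was at 0.139 to 0.750 CPM in the Ivl:BRAFV600E tumours and at 84.8, 12.6 and 16.1 CPM in S1, S2 and S3 (log2 fold change 6.15 ± 0.99 (SE), edgeR adjusted p = 0.0281). Both were highest in S1, as were Krt8, Krt18 and Krt20. Muc1, the membrane mucin, was at 0.170 to 0.713 CPM and at 1.55 to 3.14 CPM (edgeR adjusted p = 0.0560). Esrp1 and Cd24a were lower without overlap and did not pass, and Grhl2 was level at 67.7 to 78.8 CPM in all 6 tumours.

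Of 6 listed genes for proteins that anchor keratin filaments, 1 rose and none fell. The gene that rose was Plec, which encodes plectin (log2 fold change 0.88 ± 0.17 (SE), edgeR adjusted p = 0.0415). The desmosomal linker gene Dsp and the envelope linker genes Ppl and Evpl were lower without overlap and did not pass, as was Pkp1, where 16.0% of all genes tested were lower without overlap. Of 9 tested genes for other intermediate filaments, 2 rose, the muscle filament gene Des at 29.5 to 165 CPM against 1.34 to 3.04 CPM (edgeR adjusted p = 0.0179), and the neurofilament gene Nefl at 1.55 to 9.76 CPM against at most 1 count (edgeR adjusted p = 0.0255). Vim, the filament of mesenchymal cells, was at 226 to 243 CPM against 91.7 to 174 CPM and did not pass (edgeR adjusted p = 0.0775).

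Markers of glands, ducts and other cells that could hold simple keratins were read in the same way. Of 6 sweat gland markers, 1 fell, the water channel gene Aqp5 (3.22 CPM in S1, 18.7 and 24.3 CPM in S2 and S3, and 149 to 280 CPM in the Ivl:BRAFV600E tumours, edgeR adjusted p = 0.0351), and Foxa1 and Foxi1 stayed below 1 CPM. The chloride channel gene Ano1 was higher without overlap, at 81.5 to 94.3 CPM against 31.5 to 64.8 CPM, and did not pass (edgeR adjusted p = 0.0951), and Krt77, with a log2 fold change of 5.27, also belongs to this list. The median log2 fold change of the list was 0.27. The summed level of that list was 222 to 369 CPM in the Ivl:BRAFV600E group and 118 to 172 CPM in the SOX2LSL group, with Aqp5 its largest part in the first group. Of 5 tested mammary luminal markers, Prlr and Esr1 fell, Csn3 was at 0 in every tumour, and the summed level was 63.0 to 78.3 CPM against 36.3 to 47.6 CPM. Elf5, a factor of luminal and gland cells, was highest in S1 at 22.2 CPM, against 4.79 and 12.2 CPM in S2 and S3 and 4.48 to 5.70 CPM in the other group (edgeR adjusted p = 0.156). No sebaceous gland, hair follicle, fibroblast or endothelial marker passed, their summed levels overlapped between the groups, and 1 of 5 leukocyte markers, Ptprc, rose. The leukocyte sum was 113 CPM in S1, 68.1 and 63.6 CPM in S2 and S3 and 33.0 to 46.2 CPM in the Ivl:BRAFV600E group, and the fibroblast sum was also highest in S1, at 6091 CPM. The part of these cells in the S1 values was not tested.

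The genes whose log2 CPM followed Krt8 most closely over the 6 tumours, among 14430 genes with a mean of at least 1 CPM, were Txndc16 (Pearson r = 0.998), Siglec1 (0.998), Parp3 (0.997), Tmtc4 (0.996) and Ptk2 (0.995). Siglec1, a macrophage receptor, had the steepest range of these, from 0.185 CPM in B2 to 36.6 CPM in S1. For Krt13 they were Eml2 (0.992), Bves (0.990), Nipsnap2 (0.987), Gys1 (0.987) and Mrpl2 (0.986). Bves, a membrane protein of muscle and epithelium, went from 0.239 CPM in B1 to 2.72 CPM in S2. These values rest on 6 tumours in 2 groups, share the library scaling, and are the highest of many genes, so they are descriptions only. Among the members themselves, r was 0.924 for Krt8 with Krt18, 0.829 for Krt8 with Krt20, 0.844 for Krt13 with Krt20, and -0.33 for Krt13 with Krt4.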

How the data were processed

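RNA of mouse skin tumours was depleted of ribosomal RNA and sequenced. The authors aligned the reads to GRCm38 with HISAT2 2.1.0, counted them per gene with featureCounts (Subread 1.6.3) and deposited raw counts, without normalisation. Whether strand or multimapping reads were used in counting is not given in the sources used here. Columns are named by mouse. They were assigned to genotypes through the mouse list in the study's source data, and 1 column that matched no listed mouse was not used. Its name resembles those of the SOX2LSL columns, whereas the labels list 4 Ivl:BRAFV600E samples and 3 SOX2LSL samples, so its group is unsettled. The 8 members and the gene lists were chosen with earlier results of these data known.

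Genes that reached 5 reads in 1 or more tumours were tested on counts with edgeR 4.0.16 (R 4.3.3, TMM, quasi-likelihood test, genotype only, Benjamini-Hochberg over 24433 genes). Standard errors were derived from the F statistic. The test had been designed for the tumours that could be assigned by mouse name, 3 in each group. Levels per kb used the union of GENCODE M21 exons. The fits were tested on simulated data. Named genes were all 8 members, the 5 genes most correlated with Krt8 and with Krt13, and, from the keratin, simple-epithelium, cytolinker and filament lists, the genes past the threshold with up to 4 others. Cell type markers and Krt77 were singled out after their values were seen, and 1 listed gene is not reported here by name. Alternatives were DESeq2 1.42.0, limma 3.58.1 (voom with sample weights), other scalings and filters, sex as a covariate, and each tumour left out.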

Additional observations from a re-analysis of the deposited data

How the results depend on the processing

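The number of members past the threshold was 1 in the reported fit. It was 3 with DESeq2, 6 with library sizes from 8 epithelial genes, 3 with no filter on low counts and 0 with sex as a covariate, and it ranged from 0 to 2 when each tumour was left out. Over all genes the number was 954, and it was 3653 with DESeq2, 2142 with limma, 4164 with the epithelial library sizes, 1759 with no filter, 228 with sex as a covariate, and 22 to 1575 when each tumour was left out, with 22 without B1 and 1575 without S1. The epithelial library sizes shifted the median over all genes to 1.02 (log2). Relative to that, Krt20 was at 8.48, Krt8 at 6.51, Krt13 at 3.96, Krt7 at 3.17 and Krt4 at 0.19.

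DESeq2 gave no adjusted p for Krt7, Krt18 and Krt19. Krt20 was positive under all 14 alternatives, with log2 fold changes of 6.63 to 9.51. Krt4 turned negative with limma (-0.96), upper-quartile scaling (-0.068), without B2 (-0.30), without B3 (-0.08) and without S1 (-0.76), and ranged from -0.76 to 0.73 over the tumours left out. Krt7 turned with limma (-0.069) and without S1 (-0.78), and Krt19 with limma (-2.93) and without S1 (-4.25). Over the tumours left out, Krt7 ranged up to 3.17 and Krt19 up to 5.35. The cause was not tested, beyond the values of S1 itself. The log2 difference in the members' share of keratin counts was 2.69 with the TMM-scaled library size as denominator, and 3.25 to 5.03 when each tumour was left out. The log2 difference in the Krt8 to Krt18 ratio was 1.70 to 3.33 when each tumour was left out.

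No paired analysis was possible because the columns carry no replicate number. With 3 tumours in each group, no permutation p can go below 0.1. Depth limits Krt20 and Krt8 in the Ivl:BRAFV600E tumours, where 3 counts correspond to 0.102 to 0.143 CPM, and Krt19 in S2 and S3.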
